A study of Mus musculus with 3 samples.

Results

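Bglap-high osteoblast-like cells were examined within CD45- Ter119- CD31- Sca-1- Alcam+ bone-lining cells (BLCs) of wild-type mice. BLCs are the stromal cells released from the bone surface by collagenase after the marrow has been flushed out of femora, tibias and iliac bones. The series held 3 libraries of 1 group, Alcam_BLC replicates 1 to 3, all WT and untreated, prepared with droplet 3′ chemistry in which each captured molecule carries a unique molecular identifier (UMI). The mice were of young adult age by the study's methods and the labels gave no age, and no library of another genotype or treatment was compared here, so all comparisons below are between classes of cells from the same libraries. Sorting on Alcam limited the population to cells that kept this surface protein through digestion. The study describes the samples as independent, and the labels did not state how many animals went into each library. The p-values measure the spread between these 3 samples.

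The cells were chosen by their own UMIs. A barcode was counted as a member when at least 1% of its UMIs came from Col1a1, at least 0.2% came from Bglap plus Bglap2, and it had no Ptprc UMI, after barcodes with under 200 genes or over 20% mitochondrial UMIs had been removed. The rule kept 1027 of 19482 filtered barcodes (5.27%). Replicate 1 gave 30 members of 2527 barcodes (1.19%, exact 95% binomial interval 0.802 to 1.69%), replicate 2 gave 415 of 6725 (6.17%, 5.61 to 6.77%) and replicate 3 gave 582 of 10230 (5.69%, 5.25 to 6.16%). The mean share was 4.35% ± 2.75 (SD, n = 3), and the share of replicate 1 lay below the intervals of both other libraries. These intervals cover counting error only.

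Osteoblasts build bone by secreting a type I collagen scaffold and then mineralising it. Osteocalcin, the product of Bglap and its copies, is a small calcium-binding protein that late osteoblasts place in this matrix, and its transcript is the usual mark of a mature osteoblast. A master factor, Runx2, and the zinc finger factor Sp7 drive the lineage, and a share of osteoblasts later become osteocytes embedded in bone. On bone surfaces, resting bone-lining cells, active osteoblasts and their progenitors lie close together.

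The libraries differed in makeup, and replicate 1 stood apart. Median depth over all filtered barcodes was 5663, 10034 and 5995 UMIs in replicates 1, 2 and 3. Replicate 1 had 544 Cxcl12-high Lepr-positive reticular cells against 63 and 84 in the others, and 95 Ibsp-high Acan-positive chondrocytes against 1421 and 2492. The median UMI count of members was 5752.5, 2808 and 1735.5, and their median mitochondrial share was 4.56%, 2.43% and 1.93%. Members were shallower than the average cell in replicates 2 and 3, but not in replicate 1. No cell barcode was shared between members of different libraries, although 5 to 28 barcodes were shared between pairs of whole libraries. Among the barcodes with the highest doublet scores, set to a preset share that came to 2.02%, 5.38% and 8.18% of filtered barcodes, were 0, 26 and 62 members, 8.57% of all members. The own threshold of the doublet caller marked 11, 1 and 0 barcodes, so these marks are ranks and not calls.

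The genes that chose the members are given as a description. Col1a1, encoding the α1 chain of type I collagen, took a median of 4.99%, 9.63% and 8.71% of the UMIs of a member in replicates 1, 2 and 3. Bglap plus Bglap2 took a median of 1.62%, 2.87% and 3.07%, and reached 8.36%, 24.0% and 22.5% in the richest cell of each library. The middle part of the members was spread widely, with quartiles for osteocalcin from 1.26 to 5.74% in replicate 2 and from 1.51 to 5.98% in replicate 3. Thus cells that all met the same rule differed severalfold in osteocalcin.

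**Figure D1:**
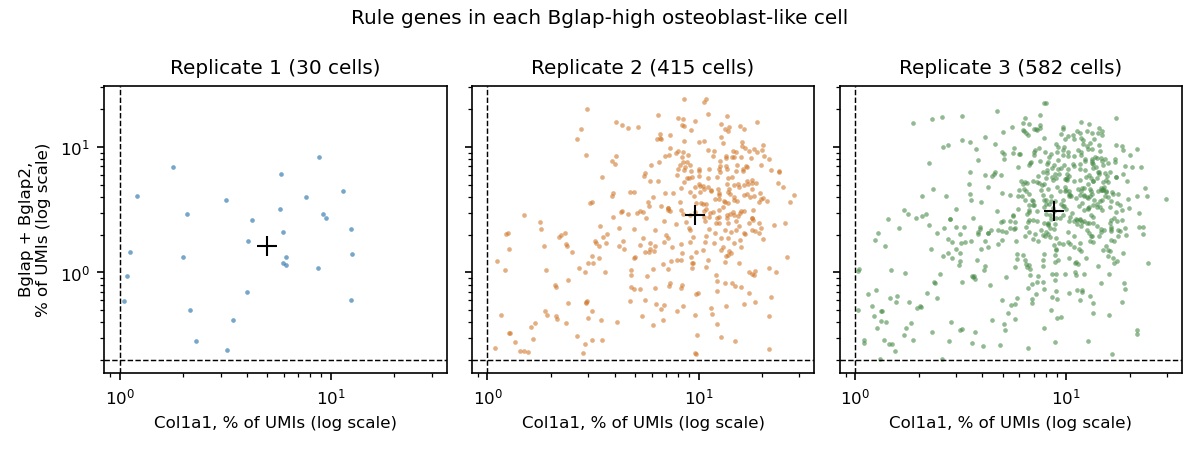
Each point is 1 Bglap-high osteoblast-like cell, with the share of its UMIs from Col1a1 on the horizontal axis and from Bglap plus Bglap2 on the vertical axis (both in percent, log scales), dashed lines at the thresholds of 1% and 0.2%, and a cross at the medians. The medians of replicate 1 (4.99% and 1.62%) lie below those of replicates 2 and 3, and few cells sit near either threshold.

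Cells near the thresholds were few. The 33 members with osteocalcin between 0.2 and 0.3% of UMIs carried 21.7 CPM of Ifitm5 (the UMIs of a gene summed over the cells and scaled to a common total) and 222 CPM of Col22a1, and the 47 cells just outside, at 0.1 to 0.2%, carried 54.3 and 163 CPM. The 41 members with 1 to 1.5% Col1a1 had 64.1 CPM of Ifitm5, and the 39 cells with 0.5 to 1% had 34.0 CPM. Acan, the aggrecan gene of cartilage, was at 1176 and 1249 CPM on the inner and outer side of the osteocalcin threshold.

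Osteocalcin is encoded by a cluster on the minus strand of chromosome 3 (GRCm38). Bglap (ENSMUSG00000074483) lies at chr3:88383501-88384464, Bglap2 (ENSMUSG00000074486) at chr3:88377736-88378699 and Bglap3 (ENSMUSG00000074489) at chr3:88368616-88372743. In members, 69.2%, 73.3% and 70.7% of the UMIs of the cluster were assigned to Bglap in replicates 1, 2 and 3. Bglap2 took 28.5%, 24.3% and 26.9%, and Bglap3 took 2.27%, 2.35% and 2.36%. The ratio was therefore nearly the same in all 3 libraries. The main GENCODE transcripts of Bglap and Bglap2 are identical at 434 of 440 aligned bases (98.6%), and those of Bglap and Bglap3 at 423 of 440 (96.1%), so the split between copies is uncertain and only their sum was used to choose cells.

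Promoter sequences are shown for the gene that defines the cells, for Ifitm5, which the rule did not use, and for Dmp1, a gene of the step towards osteocytes. Each is the 250 bases before the transcription start in RefSeq (GRCm38.p6), written 5′ to 3′ on the strand of the gene. Capitals mark the core recognised by RUNX factors, searched as TGTGGT and TGCGGT on both strands. The window of Bglap is chr3:88384467-88384716, that of Ifitm5 chr7:140950244-140950493 (both minus strand), and that of the downstream of the pair of Dmp1 starts chr5:104202367-104202616 (plus strand).
Bglap: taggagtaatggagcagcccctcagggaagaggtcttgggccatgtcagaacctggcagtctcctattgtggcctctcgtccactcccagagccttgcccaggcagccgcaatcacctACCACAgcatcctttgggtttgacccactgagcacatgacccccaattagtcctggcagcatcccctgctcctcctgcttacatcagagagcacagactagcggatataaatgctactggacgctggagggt
Ifitm5: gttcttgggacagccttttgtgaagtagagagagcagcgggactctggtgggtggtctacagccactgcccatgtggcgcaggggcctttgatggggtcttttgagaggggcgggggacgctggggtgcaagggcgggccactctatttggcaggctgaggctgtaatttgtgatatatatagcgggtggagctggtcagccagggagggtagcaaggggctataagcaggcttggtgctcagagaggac
Dmp1: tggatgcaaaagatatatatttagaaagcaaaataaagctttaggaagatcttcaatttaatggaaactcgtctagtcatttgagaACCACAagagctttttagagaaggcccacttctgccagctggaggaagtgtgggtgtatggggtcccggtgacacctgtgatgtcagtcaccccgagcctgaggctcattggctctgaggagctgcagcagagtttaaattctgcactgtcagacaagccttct
The Bglap window holds 1 core, which begins 132 bases before the start and reads on the opposite strand. The Dmp1 window shown holds 1 core 164 bases before the start, and the Ifitm5 window holds none. The window of the other Dmp1 start holds no core. Over all 32851 windows of the table, 18.6% hold a core. A match is a stretch of letters and not a measured binding site.

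The rule did not use Ifitm5, Col22a1 and Sp7. These markers were chosen with earlier results of these data known, so their levels describe the members and are no independent check of the label. Ifitm5 (ENSMUSG00000025489, chr7:140948958-140950291), also called BRIL, is a membrane protein of mineralising osteoblasts. Its level in members was 299, 297 and 274 CPM in replicates 1, 2 and 3 (290 ± 13.7, SD, n = 3). In Col1a1-high Bglap-low cells, which met the collagen threshold but had osteocalcin below that of members, it was 42.8, 53.8 and 26.4 CPM. The classes did not overlap, but here and below the share of all genes without overlap was not counted. Members were higher by 3.03 ± 0.22 on the log2 scale (standard error; edgeR quasi-likelihood test with library as a block, adjusted p = 0.00013).

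Col22a1 (chr15:71795795-72034227) encodes a collagen found at tissue junctions. It stood at 346, 523 and 478 CPM in members and at 89.1, 97.0 and 48.1 CPM in Col1a1-high Bglap-low cells. The difference was 2.79 ± 0.26 on the log2 scale (edgeR, adjusted p = 0.00029). Sp7 (chr15:102356606-102367182), the osterix factor needed to form osteoblasts, was at 145, 116 and 124 CPM against 60.6, 26.5 and 29.2 CPM, a difference of 2.08 ± 0.24 (edgeR, adjusted p = 0.00061). All 3 markers were higher in every library, and only Sp7 lost its call without replicate 2.

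Detection in single cells followed the summed levels. At least 1 of Ifitm5, Col22a1 and Sp7 was found in 27 of 30, 344 of 415 and 438 of 582 members, which is 90%, 82.9% and 75.3%. In Col1a1-high Bglap-low cells the shares were 50%, 29.9% and 19.4%, and in Cxcl12-high Lepr-positive reticular cells they were between 6.35% and 9.56%. Of members with under 1000 UMIs, 23 of 44 in replicate 2 and 63 of 122 in replicate 3 had none of the 3 markers, against 9 of 196 and 9 of 153 of those with over 3000 UMIs. The lack of a marker UMI in a member therefore moved with depth.

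All members had over 500 UMIs, so each cell was also thinned to 500. Col22a1 was then found in 6.67%, 28.4% and 28.0% of members, compared with 10.5%, 4.86% and 5.06% of Col1a1-high Bglap-low cells. Replicate 1, with 30 members, did not follow the order of the other libraries. Ifitm5 was found in 9.47% ± 2.62 of thinned members (SD, n = 3) and in 0.168% ± 0.290 of Ptprc-positive cells, which should lack it. Without thinning, Ifitm5 was found in 53.3%, 37.1% and 33.5% of members and in 4.14%, 3.33% and 1.51% of Ptprc-positive cells, whose median depth was 21485, 20265.5 and 11580 UMIs.

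Transcripts of other cell types were present in members. Tagln and Acta2, of mural cells, were at 669 and 467 CPM in replicate 1 and at or under 15.2 CPM in the others. Col2a1, the collagen of cartilage, was at 5376, 5774 and 8241 CPM. In replicate 1 a single cell held 90.2% of the Col2a1 UMIs of members, and without it that library stood at 617 CPM. The 12 chondrocyte genes, with this cell included, summed to 10023, 15041 and 19154 CPM in members, 12730, 24441 and 24541 CPM in Col1a1-high Bglap-low cells, and 543, 3119 and 5416 CPM in reticular cells. None of the 12 was at 0 over the members. An Acan UMI was found in 4 of 30, 153 of 415 and 207 of 582 members. It was also found in 3.45%, 44.2% and 40.7% of the deeper Ptprc-positive cells, and Col2a1 in 4.14%, 98.3% and 97.0% of them. In thinned cells Acan was found in 0%, 11.3% and 15.3% of members and in 0.69%, 2.5% and 8.54% of Ptprc-positive cells. An Acan UMI was thus not limited to stromal cells, and its source in members was not tested. The 5 mural genes summed to 1496 CPM in replicate 1 against 28.9 and 19.7 CPM, where 2 of the 30 cells held all 74 UMIs of Myh11. Igkc, an immunoglobulin chain, was at 355 CPM in replicate 1 and at 0 in the others. It was found in 28 of the 30 members there. S100a8 and S100a9, of neutrophils, were at or under 11.1 CPM, and Lyz2, of macrophages, at or under 3.08 CPM. The haemoglobin gene Hbb-bs was at 0, 14.2 and 108 CPM, with Hba-a1 and Hbb-bt at or under 33.8 CPM. Of endothelial genes Kdr was at 0 and Cdh5 and Egfl7 at or under 2.46 CPM, while Pecam1, which the sort selected against, was at 4.67, 49.4 and 55.4 CPM. Of osteoclast genes Calcr was at 0, Mmp9, Acp5 and Ocstamp were at or under 3.15 CPM, and Ctsk, which stromal cells also express, was at 84.1, 106 and 98.5 CPM. Adipoq, of marrow adipocyte precursors, was at 4.31 to 18.7 CPM against 1372 to 2517 CPM in reticular cells. The chondrocyte values were carried into the results below by repeating each comparison with cells that had no Acan UMI. This limit was set on members and Col1a1-high Bglap-low cells, and the chondrocyte and reticular classes were left whole. Finding an Acan UMI moved with depth, from 18.2% of members under 1000 UMIs to 46.4% of those over 3000 UMIs in replicate 2. The repeat therefore also removed deeper cells, and how well it set apart cells of chondrocyte character was not tested.

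RNA of members also had a large share of Gm42418, a transcript annotated across a ribosomal RNA repeat. It made 36319, 55012 and 48368 CPM in members, was second only to Col1a1 in mean level, and rose in shallow cells, from 29453 CPM in members over 3000 UMIs to 89282 CPM in members under 1000 UMIs in replicate 3. Alcam, the sort marker, was at 79.5, 32.1 and 30.2 CPM, and an Alcam UMI was found in 20%, 9.64% and 6.19% of members. Ly6a, which encodes Sca-1, was at 4.67, 2.63 and 3.69 CPM.

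Members held most of the UMIs of a few genes, although they held 1.03%, 2.41% and 2.34% of all UMIs. They held 59.8%, 80.0% and 82.7% of the Ifitm5 UMIs of replicates 1, 2 and 3 (74.2% ± 12.5, SD, n = 3). For Entpd3, which encodes an enzyme that cleaves extracellular nucleotides, the shares were 58.1%, 88.3% and 91.5%. Dmp1, a matrix phosphoprotein of osteocytes, was held at 35.1%, 58.4% and 48.6%. Cdh2, which encodes N-cadherin, was held at 66.3% and 68.2% in replicates 2 and 3 but at 5.14% in replicate 1, whose many reticular cells also carried Cdh2 (454 CPM). By contrast, members held 11%, 3.06% and 2.44% of Alpl and 1.53%, 3.68% and 3% of Spp1. Alkaline phosphatase and osteopontin transcripts in these libraries thus lay mainly outside the members.

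**Figure D2:**
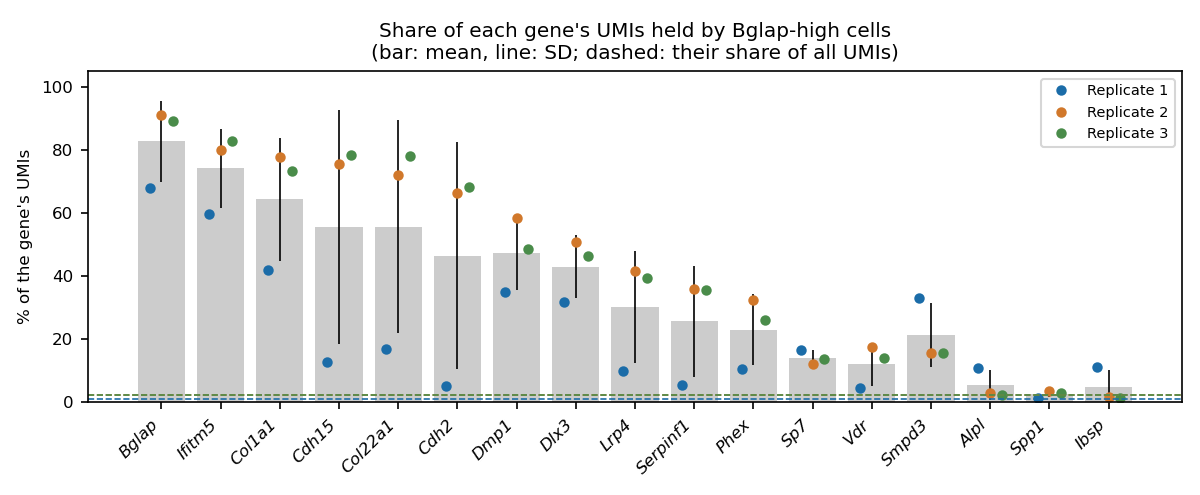
Percent of the UMIs of each gene that Bglap-high cells held, with 1 point per library, a grey bar at the mean, a line for the SD (n = 3) and dashed lines at the share of all UMIs held by these cells (1.03%, 2.41% and 2.34%). Bglap and Col1a1 chose the cells and are shown as a description, Ifitm5 reaches 59.8 to 82.7%, and Alpl, Spp1 and Ibsp stay at or below 11.3%.

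The closest class was that of Col1a1-high Bglap-low cells, with 38, 144 and 237 cells. Compared with it, members had more of Slc13a5, Smpd3 and of transcription factor and osteocyte genes, and less of Spp1, Ibsp and of fibroblast and tendon genes. Among cells with no Acan UMI, Spp1 and Ibsp did not pass, at −0.37 and −0.26 on the log2 scale. Smpd3 and Ibsp did not pass without replicate 2. Of 8831 genes tested, 1637 passed the test (18.5%), 844 higher in members (9.56%) and 793 lower (8.98%). The count rested on replicate 2: without it 95 genes passed, without replicate 3 831 passed and without replicate 1 3421 passed. In all these fits the genes called with 3 libraries kept their direction wherever they were tested, 1525 of 1525 without replicate 2. They were called with the same libraries that stay in each fit, so a kept direction is nearly given and is no separate evidence. The same holds below where direction or unadjusted p of called genes is given without a library. The comparison class had its own features, since it expressed Tnmd, a tendon gene, at 14.3, 288 and 142 CPM, Cd34 at 39.2, 35.3 and 47.2 CPM, and Col3a1 at 4361, 3188 and 2756 CPM, against 580, 131 and 152 CPM of Col3a1 in members. Of the 7 tested genes of the fibroblast and tendon list, 6 were lower in members, among them Scx, a tendon factor (−1.54), while Mkx did not pass (−0.79). Scx did not pass under DESeq2, without replicate 2 or without replicate 3, and Tnmd did not pass without replicate 2. The part of these cells in the differences was not tested.

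Among 17 tested genes of bone matrix and mineralisation, 7 were higher and 6 lower. Slc13a5, a citrate transporter, was at 173, 222 and 229 CPM in members and at 25, 37.9 and 24.5 CPM in Col1a1-high Bglap-low cells, 3.02 ± 0.22 higher on the log2 scale. Smpd3, a sphingomyelinase required for matrix to mineralise, was at 425, 507 and 477 CPM against 200, 96.1 and 95.3 CPM (2.17 ± 0.27). Col1a2, encoding the second chain of type I collagen, was at 31158, 45062 and 37769 CPM against 20158, 17527 and 17141 CPM. Each of these genes was higher in members of every library with no overlap between the classes, though the share of all genes without overlap was not counted. Sparc, osteonectin, was at 26876, 28204 and 30573 CPM against 27461, 39756 and 42283 CPM and did not pass the test.

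The lower members of this list code for matrix proteins and for the handling of phosphate and pyrophosphate. Spp1, osteopontin, was at 2590, 2405 and 2317 CPM in members and at 11593, 12618 and 8270 CPM in Col1a1-high Bglap-low cells, and fell by 1.97 on the log2 scale (SE 0.15). Omd, osteomodulin, was at 201.02, 433 and 622 CPM against 966, 1708 and 1647 CPM (−1.68 ± 0.20). Enpp1, which makes pyrophosphate, and Slc20a1, a phosphate transporter, were lower by −1.19 and −1.03. Ibsp, bone sialoprotein, was lower as well (−1.29 ± 0.29), but a single cell held 90.2% of the Ibsp UMIs of members in replicate 1, and with it that library stood at 28554 CPM against 4688 and 4899 CPM in the others, and without it at 3271 CPM. Without replicate 2, 2 of the 13 called genes of the list passed the test, and among cells with no Acan UMI 7 of 13 passed and Spp1, Omd and Ibsp did not. Alpl turned to the opposite sign in those cells (1.66, adjusted p = 0.064 by edgeR).

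Transcription factors of the lineage moved in a single direction. Of 11 tested, 6 were higher in members, and 7 were at an unadjusted p under 0.05. Over all 8831 genes tested, 844 were higher and 2934 were at an unadjusted p under 0.05. Dlx3, a homeobox factor, was at 126, 75.2 and 78.8 CPM against 25, 14.1 and 28.3 CPM in Col1a1-high Bglap-low cells, 2.14 ± 0.27 higher. Tcf7, a nuclear partner of β-catenin, was at 37.4, 41.0 and 40.6 CPM against 7.13, 5.29 and 7.55 CPM, 2.79 ± 0.32 higher. Mef2c, a factor linked to the osteocyte programme, was higher by 1.41 ± 0.21.

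Runx2 differed less and overlapped between the classes, at 846, 570 and 449 CPM in members and 881, 211 and 153 CPM in Col1a1-high Bglap-low cells. Its difference of 1.16 ± 0.30 passed the test with all libraries, but not without replicate 2, without replicate 3, without the library block, without the filter on low counts or among cells with no Acan UMI. Dlx5, Dlx6, Atf4, Zbtb16 and Cbfb did not pass, with differences from 0.01 to 0.53. Without replicate 2 none of the 6 called factors passed in edgeR, where 4 were at an unadjusted p under 0.05, and among cells with no Acan UMI 5 of 6 passed.

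Genes of the step from osteoblast to osteocyte were present only in part. Dmp1 was at 365, 295 and 326 CPM in members against 85.6, 80.3 and 27.4 CPM (2.65 ± 0.31), and it was found in 30%, 21.9% and 26.1% of members. Phex, a peptidase that controls phosphate, was at 388, 111 and 88.0 CPM against 10.7, 26.5 and 30.2 CPM (2.55 ± 0.42). Pdpn, found on early osteocytes as they extend processes, was at 108, 46.3 and 37.5 CPM against 14.3, 15 and 16 CPM (1.86 ± 0.30). Genes of mature osteocytes were close to 0. Sost, the sclerostin gene, was at 0, 1.05 and 0.615 CPM, and Mepe at 0, 1.05 and 7.38 CPM. Ptprz1, a receptor phosphatase, was at 561, 107 and 39.4 CPM against 160, 61.7 and 25.5 CPM (1.26 ± 0.24). In all, 5 of 9 tested genes of the list were higher and 2, Tnfrsf11b and Dkk1, were lower. Without replicate 2 only 1 of the 7 called genes passed.

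Genes that process and secrete collagen did not move as a group. Of 23 tested, 6 were higher and 1, Ppib, was lower, with a list median of 0.10 on the log2 scale. Bmp1, the protease that trims the end of procollagen, was at 374, 371 and 334 CPM against 121, 91.7 and 97.2 CPM, 2.00 ± 0.19 higher. Plod2, a lysyl hydroxylase for collagen cross-links, was at 1103, 1332 and 1346 CPM against 792, 706 and 544 CPM. Fkbp11, a folding factor of secretory cells, was higher by 1.40 ± 0.20. Serpinh1, the collagen chaperone, was at 982, 1058 and 949 CPM against 1077, 1154 and 916 CPM and did not pass the test (0.10). Without replicate 2 only 1 of the 7 called genes passed, and without replicate 3 it was 3.

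**Figure D3:**
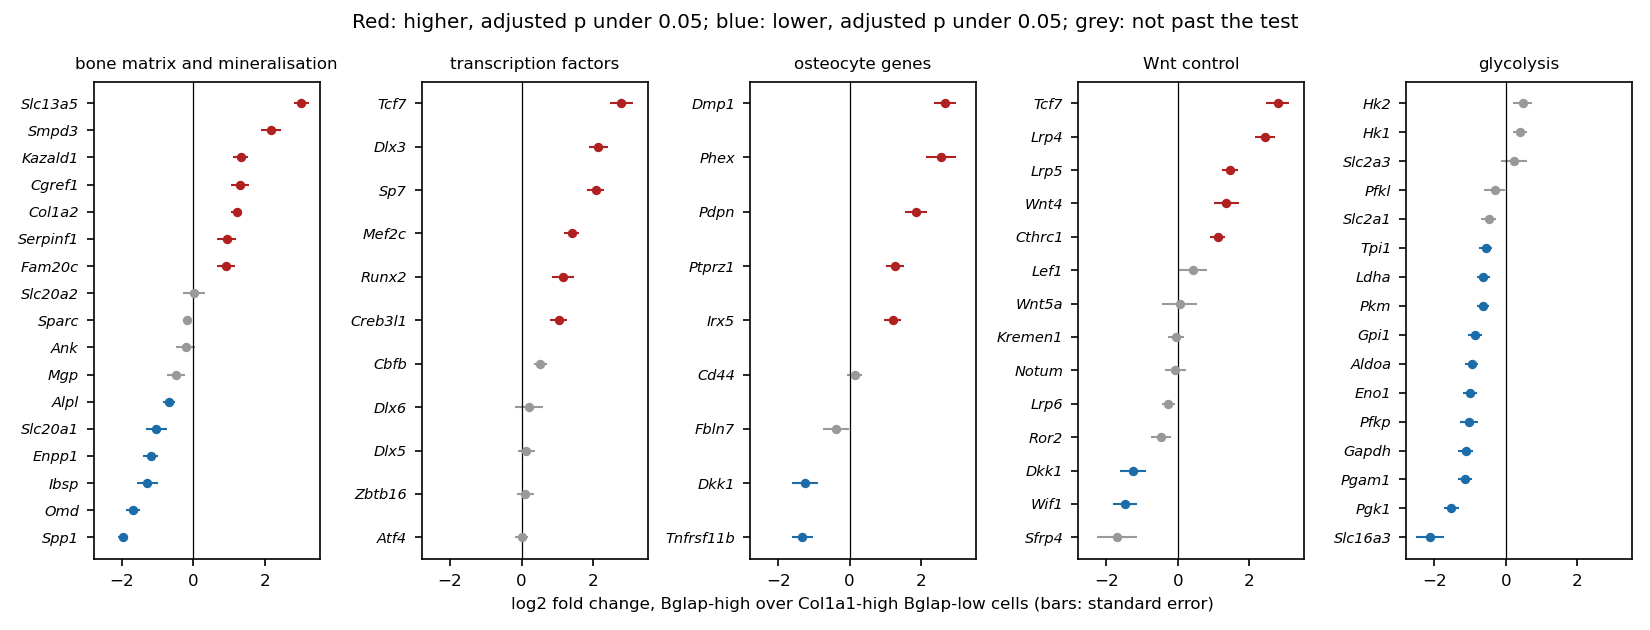
Log2 fold change of Bglap-high cells over Col1a1-high Bglap-low cells (points, horizontal axis) with its standard error (bars) for all tested genes of 5 lists. Red points are higher and blue points lower with an adjusted p under 0.05 by edgeR, grey points did not pass. Transcription factors hold 6 red and no blue points, and glycolysis holds 11 blue points.

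Receptors and regulators of bone formation were split. Lrp4, the bone receptor that presents sclerostin, was at 182, 127 and 114 CPM in members against 74.9, 19.4 and 18.9 CPM (2.44 ± 0.29), and Lrp5, a Wnt co-receptor, was higher by 1.46 ± 0.22. Wif1, a secreted Wnt inhibitor, was lower by −1.47 ± 0.34, at 453, 240 and 358 CPM against 542, 1152 and 1594 CPM. Cthrc1, a secreted protein of the collagen triple helix family, was at 192, 242 and 206 CPM against 111, 166 and 73.6 CPM (1.12 ± 0.21). Of 14 tested genes of the Wnt list 5 were higher and 2 lower. None of the 7 passed in edgeR without replicate 2, where all 7 were at an unadjusted p under 0.05 and each kept its direction, and 4 passed without replicate 3. Among cells with no Acan UMI 4 of the 5 that could be tested passed, and Wif1 did not (−1.13).

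Among 11 tested genes of hormone response and osteoclast coupling, Vdr, the vitamin D receptor, and Lifr, the receptor of leukaemia inhibitory factor, were higher. Vdr was at 88.8, 61.0 and 49.8 CPM against 46.4, 11.5 and 6.60 CPM (2.31 ± 0.34), and Lifr at 678, 368 and 258 CPM against 253, 66.2 and 66.0 CPM (2.13 ± 0.24). Igf1 was lower, at 23.4, 2.63 and 3.08 CPM against 99.8, 90.0 and 50.9 CPM. Tnfrsf11b, the decoy receptor osteoprotegerin that restrains osteoclasts, was also lower, at 168, 198 and 199 CPM against 988, 348 and 516 CPM, but among cells with no Acan UMI its difference was 0.05 and did not pass. Tnfsf11, the osteoclast factor RANKL, was at 4.67, 3.15 and 1.23 CPM in members and was too low to be tested here. Pth1r, the receptor of parathyroid hormone, was at 804, 372 and 312 CPM against 635, 340 and 249 CPM and did not pass, nor did Ghr, the growth hormone receptor, at 542, 176 and 147 CPM against 285, 145 and 132 CPM. Of the 4 called genes, only Lifr passed without replicate 2.

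The cadherins Cdh2 and Cdh15 were higher in members. Cdh2 was at 552, 560 and 495 CPM in members and at 171, 57.3 and 38.7 CPM in Col1a1-high Bglap-low cells, 3.10 ± 0.35 higher. Cdh15, M-cadherin, was at 18.7, 50.5 and 35.7 CPM against 7.13, 6.17 and 4.72 CPM (2.98 ± 0.36). Gja1, encoding the connexin 43 that joins bone cells, was higher by 0.93 ± 0.21. Of 12 tested genes of adhesion, 4 were higher and 1, Itgb5, was lower, and none of the 5 passed in edgeR without replicate 2, where all 5 were at an unadjusted p under 0.05. Cdh11, the cadherin of osteoblasts and stroma, was at 379, 336 and 235 CPM against 535, 108 and 87.7 CPM and did not pass (1.07 ± 0.38), nor did Itgb1, the common integrin chain (−0.06).

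Glycolysis genes were lower than in Col1a1-high Bglap-low cells. Of 16 tested, 11 were lower in members and the other 5 did not pass, with a list median of −0.75 on the log2 scale. Against Cxcl12-high Lepr-positive reticular cells the list did not move this way. Of 15 tested there, 2 were higher in members and 1 lower, with a median of 0.07. Gapdh was at 252, 159 and 173 CPM against 403, 455 and 508 CPM (−1.13 ± 0.21), and Pgk1 at 23.4, 41.0 and 44.9 CPM against 111, 147 and 119 CPM (−1.52 ± 0.21). Slc16a3, which exports lactate, was at 0, 4.73 and 9.23 CPM against 28.5, 26.5 and 35.9 CPM. The classes did not overlap for these 3 genes, and the share of all genes without overlap was not counted. Pkm and Ldha, the enzymes that make pyruvate and lactate, were lower by −0.64 and −0.63. Hk2 and Hk1, which start the pathway, did not pass, at 0.47 and 0.40. The calls rested on replicate 2, since none of the 11 passed in edgeR without replicate 2, where 9 were at an unadjusted p under 0.05 and all 11 kept their direction, and 6 passed without replicate 3. Members were also shallower than Col1a1-high Bglap-low cells, at 2808 against 6694 median UMIs in replicate 2 and 1735.5 against 3658 in replicate 3. All 11 passed again among cells of at least 1000 UMIs. Members stayed shallower there, at 3148 against 6761 median UMIs in replicate 2 and 2185 against 3883.5 in replicate 3. That repeat did not make depth equal, so the part of depth was not tested. An Acan UMI was found in 42.1%, 62.5% and 58.2% of Col1a1-high Bglap-low cells, and chondrocytes carried 2732 CPM of the list against 1423 CPM in members (means of 3 libraries). Among cells with no Acan UMI 10 of the 11 could be tested and kept their direction, and 6 passed, while Pkm (−0.43) and Ldha (−0.61) did not.

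Other lists moved little or in parts. Of 12 chondrocyte genes 3 were higher, among them Col11a1 (1.36 ± 0.16), and Comp was lower (−1.92 ± 0.24). Of 13 tested genes of amino acid supply, Slc7a5 and Slc38a2, both amino acid transporters, were higher by 0.87 and 0.67 and Slc1a4 was lower by −1.36, and none of these passed in edgeR without replicate 2, where 2 were at an unadjusted p under 0.05. Glul, which makes glutamine, did not pass (−0.43). Of 17 genes of the unfolded protein response, Pdia3 alone passed (−0.56 ± 0.17, lower in members), and it did not pass under DESeq2. In this list 5 genes had an unadjusted p under 0.05, as did 2934 of all 8831 genes tested. Hspa5, Hsp90b1, Calr, Sdf2l1 and Ddit3 lay between −0.66 and 0.61 and did not pass. Of 13 tested stromal and niche genes, Kitl, the stem cell factor, and Pdgfra were higher by 1.59 and 1.04, and Postn, Aspn, Pdgfrb and Grem1 were lower. Ebf1, a factor of reticular cells, was at 346, 140 and 106 CPM against 332, 168 and 96.2 CPM and did not pass. Postn, periostin, was at 318, 60.5 and 30.2 CPM in members against 1202, 474 and 124 CPM, so its level in both classes was highest in replicate 1. Without replicate 2, 3 of the 6 called niche genes passed, without the library block 1 of 6 and among cells with no Acan UMI 3 of the 5 that could be tested. Pdgfrb did not pass in any of these, nor under DESeq2, without replicate 3, without the filter on low counts or without the highest doublet scores.

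The genes with the largest differences over the whole table were not on the lists, apart from Igf1. Those higher in members with at least 50 CPM were Cpz, Lipc, Samd12, Entpd3, Bmp3, S1pr3, Adarb2, Dtna, Adgrd1 and Fhod3, with differences from 3.82 to 4.71 on the log2 scale. Cpz, a carboxypeptidase that binds Wnt proteins, was at 42.1, 255 and 252 CPM in members and at 3.57, 9.70 and 11.3 CPM in Col1a1-high Bglap-low cells (4.71 ± 0.26). Lipc, hepatic lipase, was at 131, 178 and 118 CPM against 25, 6.17 and 1.89 CPM (4.58 ± 0.45), and did not pass without replicate 2. Entpd3 was at 117, 127 and 151 CPM against 7.13, 7.06 and 9.43 CPM. Bmp3, a bone morphogenetic protein that restrains bone formation, was at 154, 104.6 and 85.5 CPM against 3.57, 9.70 and 3.77 CPM, and Fhod3, a formin that organises actin, at 383, 348 and 320 CPM against 60.6, 26.5 and 15.1 CPM.

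Those lower in members were Angptl7, Ptn, Sfrp2, Cst6, Cdh13, Fndc1, S100a4, Igf1, Col3a1 and Ramp2, with differences from −4.81 to −3.74. Ptn, pleiotrophin, was at 37.4, 9.46 and 10.5 CPM in members against 592, 370 and 242 CPM (−4.54 ± 0.26). Sfrp2, S100a4 and Igf1 did not pass without replicate 2, and the other 7 did. Col3a1, the collagen of soft connective tissue, was lower by −3.76 ± 0.30.

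Members were also compared with Ibsp-high Acan-positive chondrocytes and with Cxcl12-high Lepr-positive reticular cells. The same member cells entered all 3 comparisons, so these share their values. Ibsp and Acan, or Cxcl12 and Lepr, chose these classes and were left out. Against chondrocytes 4176 of 9529 genes passed (43.8%), 2189 higher in members (23%) and 1987 lower (20.9%), and 1367 to 6097 passed when each library was left out, with the fewest without replicate 3 and 1407 without replicate 2. Against reticular cells 2450 of 8829 passed (27.7%), 1214 higher (13.8%) and 1236 lower (14%), and 1436, 1652 and 3118 passed without replicates 2, 3 and 1.

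Osteoblast markers differed in how far they fell in these classes. Ifitm5 was at 5.89, 0.604 and 1.21 CPM in chondrocytes and at 2.01, 2.26 and 5.78 CPM in reticular cells. Dlx3 was at or under 1.28 CPM in chondrocytes and at or under 2.26 CPM in reticular cells, against 75.2 to 126 CPM in members. Sp7 was at 7.36, 16.5 and 17.5 CPM in chondrocytes and at 14.9, 15.8 and 17.4 CPM in reticular cells, below the 116 to 145 CPM of members but not at 0. Runx2 was higher than in chondrocytes (2.00 ± 0.17) but did not differ detectably from reticular cells (0.49 ± 0.21), which had 688, 475 and 561 CPM.

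**Figure D4:**
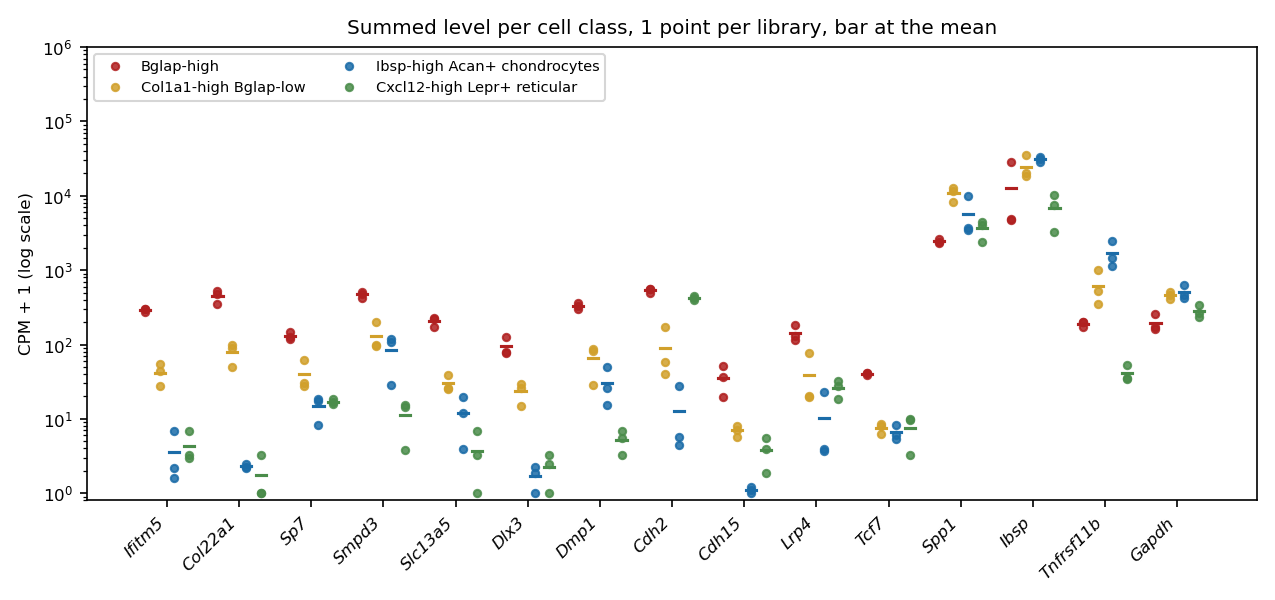
Summed level of 15 genes in the 4 cell classes (CPM + 1, log scale), with 1 point per library and a short line at the mean. The first 11 genes are highest in Bglap-high cells by their mean, with reticular cells near them for Cdh2, and Spp1, Ibsp, Tnfrsf11b and Gapdh are below the Col1a1-high Bglap-low cells by their mean.

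Chondrocytes carried more transcripts of cartilage and of hypertrophy than members. Col10a1, the collagen of hypertrophic cartilage, fell by 3.76 on the log2 scale in members (SE 0.22) and Sox9, the cartilage master factor, by 1.71 (SE 0.20). Of 11 tested chondrocyte genes 7 were lower in members, and 9 had an unadjusted p under 0.05. Over all 9529 genes tested, 1987 were lower and 5000 had an unadjusted p under 0.05. Col2a1 did not pass, at −0.82. Glycolysis genes were lower in 13 of 16 and higher in 1, and genes of the unfolded protein response were lower in 12 of 17 and higher in 2. Hspa5, the main chaperone of the endoplasmic reticulum, fell by 0.87 (SE 0.14), but did not pass without replicate 2 or without replicate 3.

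Against reticular cells, matrix genes were higher and most niche factors lower. Of 17 tested matrix and mineralisation genes 11 were higher and 6 did not pass, and of 23 collagen-processing genes 12 were higher and 11 did not pass. Plod2 was higher by 3.31 ± 0.22 and Col1a2 by 5.71 ± 0.30. Of 13 tested niche genes 10 were lower and 2, Postn and Aspn, were higher (3.94 ± 0.48 and 3.49 ± 0.70). Kitl was at 117, 38.9 and 41.2 CPM in members and at 2051, 1648 and 1437 CPM in reticular cells (−4.52 ± 0.29), Csf1, the growth factor of macrophages, was lower by −4.73 ± 0.46, and Tnfsf11 by −5.67 ± 0.39 from 127, 156 and 205 CPM in reticular cells. Chondrocyte genes were higher in members for all 12, a measure that moved with the chondrocyte transcripts given above. With only members that had no Acan UMI, against all reticular cells, Sox9 and Matn3 took the opposite sign (−0.12 and −0.08).

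Of 8105 genes tested in all 3 comparisons, 428 were higher in members in each of them (5.28%), and 55 were so without replicate 2, all 55 among the 428. The 428 included Cpz, Lipc, Samd12, Entpd3, Dtna, Fhod3, Bmp3, Ifitm5, Col22a1, Sp7, Dlx3, Tcf7, Dmp1, Cdh2, Cdh15 and Lrp4. Cpz had no UMI in reticular cells of any library, against 903 UMIs over all members. Of the 428 genes, 314 had a promoter window, and 61 of these (19.4%) held a RUNX core, against 20.9% of all 27025 genes with a window.

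Members were also divided within each library into tertiles by their share of osteocalcin, which asks what varies with osteocalcin among cells that all passed the rule. The lowest tertile had a median of 0.595%, 0.807% and 0.966% osteocalcin in replicates 1, 2 and 3, and the highest 4.03%, 7.64% and 7.93%. These values are what the split was made on. The median share of Col1a1, the other rule gene, also differed, at 3.34%, 6.19% and 6.59% in the lowest tertile and 5.77%, 11.1% and 9.83% in the highest. The tertiles thus differ in both rule genes, and the part of Col1a1 was not tested. Of 5388 genes tested, 658 passed (12.2%), 256 higher in the highest tertile (4.75%) and 402 lower (7.46%). The tertiles of replicate 1 held 10 cells each. Without that library 1409 genes passed, without replicate 2 156 passed and without replicate 3 12 passed, all of them lower. Without the library block 330 passed.

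Chondrocyte transcripts moved with the split. The 12 chondrocyte genes summed to 17116, 21489 and 30188 CPM in the lowest tertile and to 4266, 8424 and 8439 CPM in the highest. An Acan UMI was found in 30%, 44.2% and 49.0% of cells of the lowest tertile and in 0%, 30.4% and 25.8% of the highest. The barcodes with the highest doublet scores held 0, 17 and 35 cells of the lowest tertile and 0, 2 and 3 of the highest. Median depth was 6719.5, 2509 and 1739 UMIs in the lowest and 5137, 3260 and 1796.5 UMIs in the highest tertile. The comparison was repeated among members with no Acan UMI, where 365 of 3255 genes passed. That repeat also left out replicate 1, whose tertiles then held 8 cells each, so it rests on replicates 2 and 3 and its count stands beside the 1409 genes of these libraries with all members.

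Genes higher with osteocalcin included Cdh2, Kazald1 and Serpinf1. Cdh2 was at 1066, 1084 and 1080 CPM in the highest tertile and at 442, 312 and 286 CPM in the lowest, on a scale without the rule genes (1.74 ± 0.24), and among members with no Acan UMI the difference was 1.24. Kazald1, a secreted protein of bone that binds growth factors, was at 104, 412 and 369 CPM against 30.8, 153 and 88.4 CPM (1.80 ± 0.27, and 1.44 without Acan-positive cells). Serpinf1, the antiangiogenic factor PEDF whose loss impairs mineralisation, was at 1222, 3096 and 2807 CPM against 730, 869 and 727 CPM (1.62 ± 0.26, and 0.94). Ifitm5 was higher in replicates 2 and 3, at 632 and 600 CPM against 180 and 124 CPM, but not in replicate 1, at 312 against 350 CPM. None of these 4 genes passed without replicate 3, and Ifitm5 did not pass without replicate 2.

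Slc13a5 rose by 1.22 ± 0.25 from the lowest to the highest tertile, and passed again among members of replicates 2 and 3 with no Acan UMI, at 0.99. Col22a1 rose by 1.12 ± 0.23, and by 1.07 in replicates 2 and 3 alone, but stood at 0.16 and did not pass among cells of these libraries with no Acan UMI. Lrp4 stood at 1.01 with 3 libraries, at 0.93 without replicate 1 and at −0.19 among cells of replicates 2 and 3 with no Acan UMI. Slc13a5 and Col22a1 did not pass without replicate 2 or without replicate 3. By the size of the difference, the 10 leading genes were Cacnb3, Cd1d1, Otud1, Insc, Kazald1, Prss35, Hspb2, Nkd2, Chn1 and Cdh2, between 1.74 and 2.13 on the log2 scale. Without replicate 3 the 9 of these that could be tested did not pass. Insc, an adaptor in cell polarity, was at 104, 192 and 167 CPM against 41.1, 61.1 and 42.5 CPM.

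**Figure D5:**
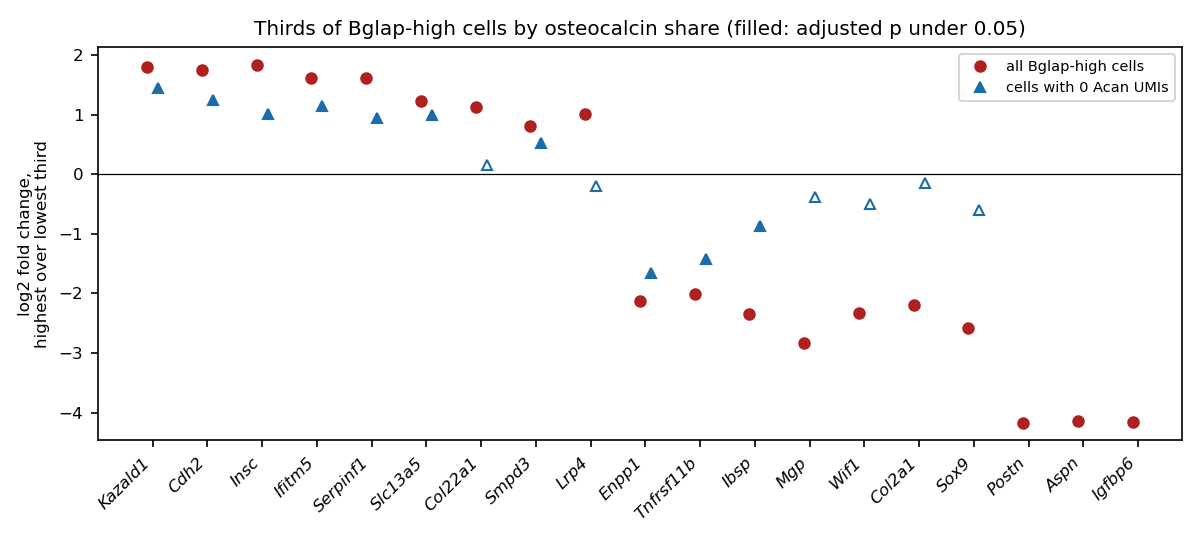
Log2 fold change of the highest over the lowest tertile of Bglap-high cells by osteocalcin share (vertical axis), for all cells (circles) and for cells with no Acan UMI (triangles, replicates 2 and 3 only), filled where the adjusted p was under 0.05 by edgeR. Cdh2, Kazald1 and Ifitm5 stay above 1 in both, Lrp4 and Col22a1 fall close to 0, and genes with no triangle were too low to be tested among cells with no Acan UMI.

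The lists split in the genes that were lower with osteocalcin. Of 16 tested genes of bone matrix and mineralisation 6 were higher and 6 lower in the highest tertile, of 10 of hormone response and osteoclast coupling 1 was higher and 2 lower, and of 8 stromal and niche genes 3 were lower. Enpp1 was at 52.0, 25.5 and 32.2 CPM in the highest tertile against 103, 144 and 139 CPM (−2.12 ± 0.32), and Tnfrsf11b at 156, 50.9 and 111 CPM against 257, 411 and 348 CPM (−2.01 ± 0.34). Both passed again among members with no Acan UMI, at −1.65 and −1.43, but not without replicate 2 or without replicate 3. Ibsp was at 5486, 1936 and 2657 CPM against 58900, 9414 and 7398 CPM (−2.35 ± 0.29, and −0.86 without Acan-positive cells), where the single cell named above lies in the lowest tertile of replicate 1, and the difference was −1.78 without that library. Mgp, Wif1 and Col2a1 fell by 2.84, 2.34 and 2.19 but did not pass among members with no Acan UMI, at −0.38, −0.50 and −0.14. Postn and Aspn, asporin, were at 0 or near it in the highest tertile of replicates 2 and 3 and at 16.8 to 93.5 CPM in the lowest.

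In the lowest tertile, 10 of 12 chondrocyte genes were higher than in the highest tertile and 1, Col11a1, was lower. The 10 genes with the most negative differences were Tbc1d1, Camk4, Postn, Igfbp6, Aspn, Pdzrn4, Tgfb2, Maml2, Edil3 and Aff3, between −5.28 and −3.74. Tgfb2, a growth factor stored in bone, was at 0, 9.26 and 11.7 CPM in the highest tertile against 82.2, 150 and 168 CPM, and only Igfbp6 of these 10 passed without replicate 3. Comp, a matrix protein of cartilage and tendon, was lower by −2.77 ± 0.27. Glycolysis genes were lower in the highest tertile in 6 of 14, and of these 6 only 2 could be tested among members with no Acan UMI, where neither passed.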

How the data were processed

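UMI counts per gene and barcode in 3 libraries were used as deposited. Per the labels and the study's methods, the authors prepared them with Cell Ranger 7.1.0 against mm10 (GRCm38), and the deposited matrices hold 2606, 7172 and 10529 barcodes with 20985636, 79905165 and 69890252 UMIs. Together the matrices hold 20307 barcodes, fewer than the total number of cells that the study states for its samples. Shares given here are of the deposited barcodes. Further read filters were not given in the sources used here.

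A barcode entered when 200 or more genes were detected and its mt- genes made 20% or less of its UMIs, and 79, 447 and 299 barcodes were left out by this. Members were selected as stated above. Col1a1-high Bglap-low cells had at least 1% Col1a1 and under 0.2% osteocalcin, chondrocytes at least 0.5% Ibsp and an Acan UMI, and reticular cells at least 0.5% Cxcl12 and a Lepr UMI, all without Ptprc. Members and gene lists were chosen with earlier results of these data known. Doublets were marked by the highest Scrublet scores (scanpy 1.11.5, expected rate of 0.8% per 1000 barcodes) and kept, and an alternative removed them.

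Counts were summed per class and library, and tested with edgeR 4.0.16 (R 4.3.3, quasi-likelihood, TMM, filterByExpr, Benjamini-Hochberg adjusted p, threshold 0.05) with the library as a block. Classes of a library come from the same sample, which is where the pairing comes from, and same-library sums deviated together (correlations 0.12 to 0.191 against Col1a1-high Bglap-low cells, 0.139 to 0.307 against chondrocytes, 0.0907 to 0.188 against reticular cells and 0.0655 to 0.159 between tertiles). Rule genes and mitochondrial genes were left out of library sizes and tests. Shares have exact binomial intervals (95%), which with PCR-amplified libraries cover counting error only. Detection was compared after thinning each cell to 500 UMIs. Levels per cell class cannot tell fewer expressing cells from less RNA per cell.

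Named genes are those of the fixed lists, with at least the 3 of highest level and the 2 of largest difference in each list, plus the 10 largest and 10 most negative differences at 50 CPM or more in the higher class for the first comparison and the tertiles. Genes of the other comparisons come from the lists, of which a few genes are not reported here. Transcript identity used GENCODE vM21 and promoter windows RefSeq GRCm38.p6. The table of promoters did not hold Bglap2, Col1a1, Col22a1 or Sp7.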

Additional observations from a re-analysis of the deposited data

Results flagged for a closer look

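Among barcodes that the quality filter removed, 25 met the expression rule for Bglap-high cells, 1, 17 and 7 in replicates 1, 2 and 3. They lie outside the data used in every comparison. Of these, 20 exceeded the mitochondrial limit and 5 had too few genes, their median mitochondrial share was 22.0% and their median depth 1364 UMIs. Together they held 7 Ifitm5 and 22 Col22a1 UMIs of 44109 UMIs in all.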

How the results depend on the processing

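Leaving out each library gave 95 to 3421 genes against Col1a1-high Bglap-low cells, 1367 to 6097 against chondrocytes, 1436 to 3118 against reticular cells, 12 to 1409 between tertiles and 55 to 729 genes higher than in all 3 classes, where the fewest came without replicate 2, except against chondrocytes and between tertiles, where they came without replicate 3. The share of members ran from 3.44 to 5.93% and the share of Ifitm5 held from 69.9 to 81.4%. Leaving out a library cannot move a mean of 3 by more than its SD, so that limit bears only on the other alternatives. Under those, neither share moved by more than its SD, which for the share of members was 2.75. Without the replicate block 1091 genes passed against Col1a1-high Bglap-low cells and 330 between tertiles, and DESeq2 gave 710, 200 and, for all 3 classes, 254. Among cells with no Acan UMI, an alternative added after the data were seen, 970 and 365 passed, and the signs of Alpl (1.66) and Tnfrsf11b (0.047) against Col1a1-high Bglap-low cells, of Sox9 (−0.12) and Matn3 (−0.076) against reticular cells and of Lrp4 (−0.19) between tertiles turned. The cause was not tested. Between tertiles 272 genes passed with marked doublets removed. Requiring 1000 UMIs gave 1546, a mitochondrial limit of 10% gave 1508 and leaving out the cell richest in Ibsp, also added later, gave 1409, each of which left under 10 cells per tertile in replicate 1 and so dropped that library, as did the comparison of tertiles among cells with no Acan UMI. Other scalings, filters and thresholds kept the counts within 1.5 times. The 77 named genes called against Col1a1-high Bglap-low cells kept their direction wherever tested apart from the 2 above. They were called from the same libraries, which favours this. Of them, 57 passed without the block and 27 without replicate 2. Depth limited single-cell detection, since members had a median of 1735.5 to 5752.5 UMIs.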

Other observations

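A pair of genes outside the lists was picked after their values were seen. Car3, a carbonic anhydrase, was at 411, 456 and 316 CPM in Bglap-high cells and at 35.7, 52.0 and 17.0 CPM in Col1a1-high Bglap-low cells, and at or under 2.94 CPM in chondrocytes. Slc36a2, an amino acid and proton carrier, was at 229, 169 and 162 CPM in Bglap-high cells against 39.2, 15.9 and 15.1 CPM. In both genes the classes did not overlap, which is favoured by picking them for their values. How many of all genes lacked overlap was not counted.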
